A study of Mus musculus with 6 samples.

Results

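Solute carriers are membrane proteins that move nutrients, metabolites, metals and ions into cells, out of them, and between the cytosol and the organelles. The members described here were chosen by their symbols and by their measured levels: a symbol of the solute carrier (Slc) series, and a value of at least 1 in all 3 samples of at least 1 genotype. Of 319 genes with such a symbol among the 17067 genes listed, 168 met that rule. Their values are read as FPKM, fragments scaled to transcript length and library depth, by inference from the values themselves. The rule reads level only, so 159 members at 1 or more in all 6 samples could be compared between the genotypes, and 9 members that entered through 1 genotype alone are given by level with no test.

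The study sorted CD45+CD11b+F4/80+ macrophages from colons of 10-week-old C57BL/6 mice. All the mice received dextran sulfate sodium (DSS), a compound given to rodents to damage the colon lining and produce colitis, so no group was free of colitis. Wild-type (WT) mice were compared with Gsdmd-/- mice, which lack gasdermin D, the pore-forming protein of pyroptotic cell death; the labels give it as a plain knockout and name no Cre or cell type. Each genotype has 3 samples of total RNA sequenced on a BGISEQ-500, and the labels do not say whether each sample is a separate mouse, so the p-values measure only the spread between these samples.

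The Slc symbols sort genes by family, and a family often shares a kind of substrate. Most Slc25 carriers sit in the mitochondrial inner membrane and exchange metabolites such as ADP and ATP, citrate or phosphate. The whole Slc25 family is counted here as mitochondrial, whatever the site of the single member. Slc30 proteins move zinc out of the cytosol and Slc39 proteins move it in. Slc2 proteins carry glucose, and several Slc7 proteins carry amino acids as pairs with the heavy chain Slc3a2. Many Slc35 proteins bring nucleotide sugars into the Golgi, and several Slc16 proteins carry lactate. In macrophages these genes are known for iron and zinc handling, for lactate release during glycolysis and for the export of digested material from lysosomes. Classes of substrate were assigned to the members by hand: 31 mitochondrial, 27 metal, 25 amino acid, 21 ion, 19 nucleotide sugar, 15 organic ion, lipid or nucleoside, 12 glucose and sugar, 8 vitamin or choline, and 7 monocarboxylate or peptide carriers. The last 3 members, Slc4a1ap, Slc7a6os and Slc9a3r1, match the symbol pattern but are named after a carrier and do not transport solutes.

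Across the libraries, the WT values summed to between 476271 and 485411 FPKM, and those of Gsdmd-/- to between 551502 and 565388, so scaling each library to the same total (the TPM scale) moves the median change of all tested genes to -0.174 on the log2 scale, from 0.0274 as deposited. From the spacing of low values, each library was estimated at roughly 20300000 to 21000000 fragments. Gsdmd itself read 97.7, 99.4 and 97.4 FPKM in WT and 28.5, 29.0 and 29.7 in Gsdmd-/-, lower in every knockout sample but not at 0. All 10 macrophage markers were detected, with summed levels of 8252 to 8768 in WT and 9314 to 9417 in Gsdmd-/-. Lyz2 made up most of that sum, with means of 5008 in WT and 5469 in Gsdmd-/-. By the calls defined below, 4 of the 10 rose and 5 fell, or 1 and 8 once the trend described there was taken out. The genes of the sorting markers, Itgam, Adgre1 and Ptprc, were each lower in Gsdmd-/-. Their means were 176.5, 290.8 and 92.44 in WT and 91.26, 215.7 and 57.87 in Gsdmd-/-, in that order. The sum of 9 fibroblast markers was 32.7 to 34.3 in WT and 88.3 to 90.4 in Gsdmd-/-, and that of 6 smooth muscle or glial markers 2.02 to 3.99 and 11.3 to 12.4. Of these, Lum and Pdgfra were at most 0.32 and Myh11, Des and S100b at or near 0 in all 6 samples. The listed epithelial markers summed to 3.01 to 3.48 in WT and 1.79 to 2.11 in Gsdmd-/-, the lymphocyte markers to at most 0.91, and the erythroid markers to at most 1.15. The other lists gave 29.1 to 32.9 in WT and 38.01 to 41.0 in Gsdmd-/- for neutrophils, nearly all of it Csf3r, with Ly6g, Mpo and Retnlg near 0. The sums were 6.22 to 6.42 and 3.88 to 4.13 for eosinophils or mast cells, 6.81 to 7.80 and 8.86 to 9.77 for dendritic cells, and 62.6 to 66.8 and 33.7 to 39.2 for endothelium. That last difference was Kdr alone (means of 56.4 and 26.3), since Emcn, Pecam1 and Cdh5 were higher in Gsdmd-/- on average, at no more than 1.46. The part of these cells in the differences below was not tested, and in bulk RNA fewer cells of a type and less RNA per cell cannot be told apart.

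Beyond the genotype, the change of a gene between the groups followed the length and GC content of its transcript. Over all tested genes, the change had a Spearman rho of -0.65 with transcript length and of 0.50 with GC content, and a smooth trend on both held 50.7% of its variance. Calls and changes are therefore given as deposited and, for most genes named, again after that trend was taken out of every sample, written below as with the trend removed; counts of non-overlapping groups and of folds are given as deposited only. A change is the mean of Gsdmd-/- minus the mean of WT on log2(FPKM + 1), which understates the change of low genes, and a gene rose or fell when limma's adjusted p, over all tested genes, was under 0.05.

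Among the 159 members, 3 of which are not carriers (1 rose and 1 fell), 68 fell and 47 rose in Gsdmd-/- macrophages. That is 42.8% fallen and 29.6% risen, against a background of 36.5% fallen and 41.1% risen among all 9375 genes at 1 or more in all 6 samples (77.6% called in either direction). The median change of the members was -0.09 and that of the 9375 genes 0.03. With the trend removed, 67 members fell and 22 rose, against a background of 32.1% fallen and 30.2% risen (62.4% called), with medians of -0.08 for the members and -0.0031 for all genes. The count of fallen members was alike in both, but only 49 members fell in both and 13 rose in both. Of the other members that had risen, 29 lost the call and 5 fell; of those that had fallen, 18 lost it and 1 rose. On the TPM scale 17 rose, 101 fell and the median was -0.29, where the median of the 9375 genes was itself -0.172. The share of all genes called on that scale is not given here, so these counts have no background beside them.

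The groups did not overlap for 121 of the 159 members, 73 of them lower and 48 higher in all 3 Gsdmd-/- samples; the background for lower, higher and either was 37.9%, 41.7% and 79.7%. Large differences lay on the lower side. The mean of 31 members was at least 1.5-fold lower in Gsdmd-/- (background 14.8%) and that of 3 members at least 1.5-fold higher (background 11.2%). For 9 members it was at least 2-fold lower (background 3.77%), and for none at least 2-fold higher. Replicates were close together, with a median standard deviation within a genotype of 0.05 on the log2 scale.

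**Figure D1:**
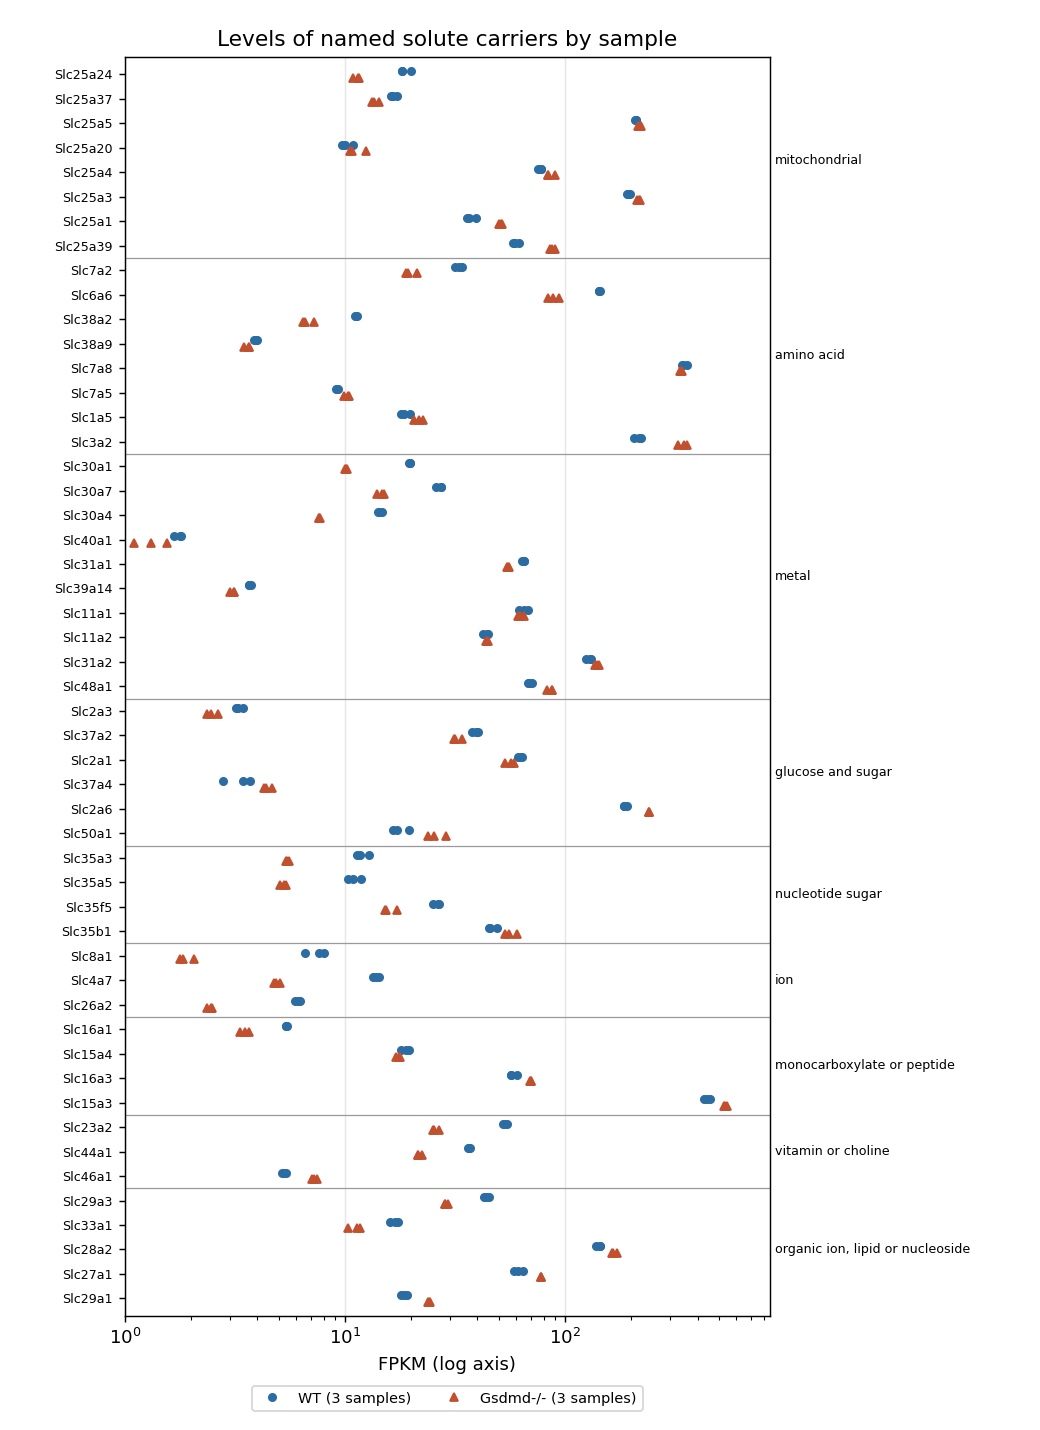
FPKM on a log axis in each of the 3 WT (circles) and 3 Gsdmd-/- (triangles) samples for members with full values at 1 or more in all 6 samples, grouped by class of substrate. Most members differ less between the genotypes than from each other: levels run from under 2 for Slc40a1 to 542 for Slc15a3.

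The members that fell were longer and poorer in GC than those that rose. The median transcript was 4226 bases with 47.5% GC among the 68 that fell, 3127 bases with 52.6% among the 44 not called and 2469 bases with 56.5% among the 47 that rose. Across the 159 members the change had a Spearman rho of -0.60 with length and of 0.72 with GC content, as a description, since all points share the same 6 libraries. The member with the longest transcript, Slc8a1 (18464 bases), also had the largest fall.

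**Figure D2:**
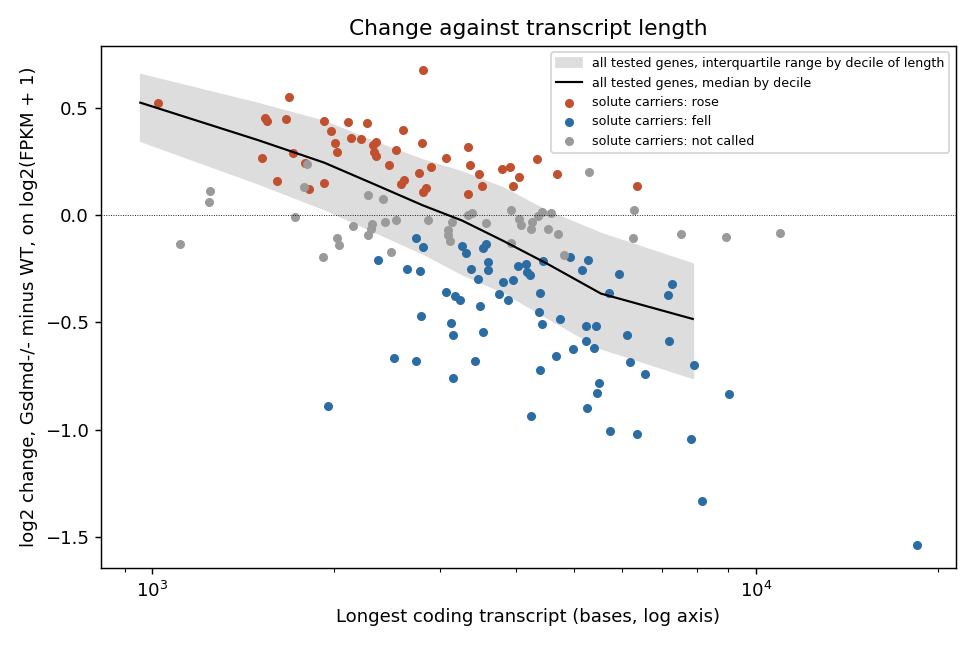
Log2 change, Gsdmd-/- minus WT, of each of the 159 members (points, coloured by call) against the length of its longest coding transcript on a log axis, over the median (line) and interquartile range (band) of all tested genes by decile of length. The line falls from 0.52 in the shortest decile to -0.48 in the longest, and the median of the members goes from 0.09 (4 members) to -0.64 (12 members).

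Mitochondrial carriers moved in both directions. Of 29 Slc25 members in all 6 samples, 13 rose and 10 fell, with a median change of 0.11; that is 44.8% risen and 34.5% fallen, near the 41.1% and 36.5% of all genes. With the trend removed 3 rose and 14 fell with a median of -0.09, against 30.2% risen and 32.1% fallen of all genes. On the TPM scale 4 rose and 16 fell with a median of -0.11, counts with no share of all genes to set beside them. The median of all genes in all 6 samples was 0.03 as deposited, -0.172 on the TPM scale and -0.0031 with the trend removed. The family median thus lay above that of all genes as deposited and on the TPM scale, and below it with the trend removed. Only Slc25a12, Slc25a39 and Slc25a45 rose both as deposited and with the trend removed.

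Slc25a39, a carrier that brings glutathione into mitochondria, read 58.0, 61.8 and 59.0 FPKM in WT and 90.4, 87.4 and 85.8 in Gsdmd-/-, with no overlap. It rose by 0.55 (SE 0.0352, adjusted p = 4.44e-08 in limma), and by 0.09 with the trend removed (adjusted p = 0.011). Slc25a1, which exports citrate for fatty acid synthesis, read 35.8, 39.6 and 36.5 in WT and 52.0, 51.2 and 50.2 in Gsdmd-/-. All knockout samples were higher and the change was 0.45 (SE 0.0417, adjusted p = 1.12e-06), but the value with the trend removed was -0.01 (adjusted p = 0.804). The 2 mitoferrins, which import iron for heme and iron-sulfur clusters, moved apart as deposited. Slc25a28 (mitoferrin 2) had means of 28.8 FPKM in WT and 39.7 in Gsdmd-/-. Slc25a37 (mitoferrin 1) fell from 16.2, 17.2 and 16.6 to 13.5, 14.3 and 13.3, a change of -0.27 (adjusted p = 0.000253). Both were uncalled with the trend removed, at -0.06 for Slc25a28 and -0.08 for Slc25a37.

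Several abundant mitochondrial carriers changed little. Slc25a5, an ADP/ATP exchanger, was the highest of the class at 211, 211 and 207 FPKM in WT and 219, 222 and 215 in Gsdmd-/-. The groups did not overlap, yet its change of 0.06 missed the threshold (adjusted p = 0.0543, and 0.0232 without Gsdmd-/- replicate 3), and it turned to -0.25 with the trend removed and -0.16 on the TPM scale. Slc25a3, the phosphate carrier, read 193, 196 and 192 in WT and 217, 220 and 212 in Gsdmd-/-. Its rise of 0.16 (adjusted p = 0.000165) turned to -0.05 with the trend removed and -0.06 on the TPM scale. Slc25a22, a glutamate carrier, rose from a mean of 116 to 125 and stood at -0.12 with the trend removed (adjusted p = 0.00149) and -0.11 on the TPM scale. Slc25a4, another ADP/ATP exchanger, rose by 0.15 from a mean of 77.0 to 85.5, and turned to -0.09 and -0.07 in the same order. At a lower level, Slc25a20, which carries acylcarnitines for fatty acid oxidation, overlapped between the groups at 9.96, 10.9 and 9.68 against 12.5, 10.8 and 10.54. Its change of 0.13 missed the threshold (adjusted p = 0.0915, and 0.0445 without WT replicate 2).

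Among the mitochondrial falls, Slc25a24, a calcium-regulated carrier of ATP-magnesium and phosphate, went from 19.9, 18.1 and 18.2 FPKM to 11.6, 11.5 and 10.9. The change was -0.68 (SE 0.0507, adjusted p = 1.63e-07), or -0.42 with the trend removed. The aspartate-glutamate carriers of the malate-aspartate shuttle went opposite ways: Slc25a13 had means of 8.41 in WT and 5.63 in Gsdmd-/-, and Slc25a12 means of 36.3 and 40.0. With the trend removed they stood at -0.41 and 0.57, both past the threshold. Slc25a12 was not called on the TPM scale, at -0.08. Slc25a16 was the mitochondrial member in all 6 samples with the lowest knockout level relative to WT, with means of 3.91 and 1.92 and a change of -0.76, or -0.56 with the trend removed.

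Amino acid carriers split between a single strong rise and a series of falls. Of 23 members in all 6 samples, 11 fell (47.8%) and 6 rose (26.1%), with a median of -0.13. With the trend removed 8 fell and 3 rose, with a median of -0.01. Shares among all genes were 36.5% fallen and 41.1% risen, or 32.1% and 30.2% with the trend removed. Without WT replicate 3 the count of rises was 3, on the TPM scale 1 rose, and under median ratio scaling 3 rose. The shares of all genes called under these settings are not given here. The 6 rises were Slc3a2, Slc1a5, Slc43a3, Slc6a8, Slc7a5 and Slc38a7, and all but Slc3a2 were of at most 0.20.

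Slc3a2, the CD98 heavy chain that carries Slc7 light chains to the cell surface, read 205, 222 and 217 FPKM in WT and 358, 347 and 326 in Gsdmd-/-. Every knockout sample was higher, at 1.60 times the WT mean. The rise of 0.68 (SE 0.0385, adjusted p = 2.31e-08) was the largest among the 159 members as deposited, and was 0.46 on the TPM scale. With the trend removed it was 0.55 (adjusted p = 4.70e-07), below the monocarboxylate carrier Slc16a7 (0.72), Slc22a29 (0.58) and Slc25a12 (0.57). Its light chains did not rise with it as a group. Slc7a8, which carries neutral amino acids and was the most abundant amino acid carrier in WT, stood at 340, 357 and 345 in WT and 332, 337 and 339 in Gsdmd-/-; its change of -0.05 missed the threshold (adjusted p = 0.121). Slc7a5, the leucine carrier of activated cells, read 9.31, 9.15 and 9.19 against 9.87, 10.4 and 10.5. Its rise of 0.14 (adjusted p = 0.0227) lost the call with the trend removed (0.04), turned to -0.07 on the TPM scale, and lost it without WT replicate 2 or 3 or without Gsdmd-/- replicate 2 or 3, with adjusted p between 0.0523 and 0.0615. Slc7a7, the light chain for arginine and lysine exchange, had means of 9.59 and 10.3 and was not called, while Slc7a6, of like substrates, fell from 2.43 to 1.66, by 0.37 on the log2 scale or 0.21 with the trend removed.

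Slc7a11, the light chain that imports cystine for glutathione synthesis, entered through WT alone. It read 1.52, 1.40 and 1.56 FPKM in WT and 0.77, 0.78 and 0.78 in Gsdmd-/-, so all knockout samples were under 1. The gene is a known target of the stress factor ATF4, and the bases before its listed transcript start are shown for that reason, though the annotated gene extends farther upstream. They hold 2 matches to TGATGNAA, a motif of CEBP-ATF pairs, 1 on each strand and within 66 bases of the start. The sequence is from the RefSeq promoter table, build GRCm38.p6, minus strand, chr3:50443614-50443726, up to the base before the listed start, with the matches in capitals.
Slc7a11: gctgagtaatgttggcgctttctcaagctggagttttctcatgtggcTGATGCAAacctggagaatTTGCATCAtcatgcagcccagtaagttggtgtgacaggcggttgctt
Both strands of the 250 bases before the first listed start were searched, with no overlap between the 2 matches. The motif was in 3.53% of 27025 promoters and in 4 of the 128 members matched to the table (3.12%).

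Several amino acid importers of the cell surface fell. Slc7a2, the arginine carrier of activated macrophages, went from 34.0, 31.7 and 33.1 FPKM to 19.4, 19.0 and 21.3, a change of -0.70 (SE 0.0494, adjusted p = 9.85e-08) that was -0.13 with the trend removed (adjusted p = 0.00713). Slc6a6, the taurine carrier, went from 143, 142 and 144 to 88.5, 83.6 and 93.7, a change of -0.69 (SE 0.0383, adjusted p = 1.61e-08), or -0.39 with the trend removed. Slc38a2, which takes up small neutral amino acids and responds to amino acid shortage, went from 11.3, 11.2 and 11.1 to 6.59, 6.43 and 7.21. The change was -0.66 (adjusted p = 4.05e-07), or -0.28 with the trend removed. In all 3 the groups were far apart. Slc16a10, the carrier of aromatic amino acids, had means of 21.1 and 13.4 and also fell, by 0.62 on the log2 scale or 0.27 with the trend removed. Slc1a5, the main glutamine importer, read 19.7, 18.6 and 18.01 in WT and 21.7, 20.6 and 22.7 in Gsdmd-/-; its rise of 0.20 (adjusted p = 0.00318) became -0.01 with the trend removed and -0.02 on the TPM scale.

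Amino acid carriers known from lysosomes, and their relatives, differed among themselves. Slc36a4, a relative of Slc36a1, had the largest fall of the amino acid class, from a mean of 4.85 to 2.49, a change of -0.74 (adjusted p = 1.86e-06), or -0.21 with the trend removed (adjusted p = 0.0266). Slc38a9, the lysosomal arginine sensor that signals to mTORC1, read 3.87, 4.0 and 3.96 in WT and 3.49, 3.65 and 3.67 in Gsdmd-/-. The groups did not overlap, but the change of -0.10 was not called (adjusted p = 0.133, and 0.0368 in limma without trend and robust), and it turned to a rise of 0.47 with the trend removed (adjusted p = 4.94e-05). Slc36a1, a proton-coupled carrier of the lysosome, fell from a mean of 5.56 to 4.68, and Slc38a7, which exports lysosomal glutamine, rose from 33.0 to 35.4. Neither was called with the trend removed, at -0.04 for Slc36a1 and -0.0038 for Slc38a7, and on the TPM scale Slc38a7 fell by 0.12 (adjusted p = 0.013). Among 24 tested genes of the machinery that senses amino acids at the lysosome, 10 fell and 7 rose, with a median of -0.05, against 36.9% fallen and 40.6% risen of all 10005 genes tested (77.5% called). With the trend removed 13 fell and 2 rose, against 31.4% and 30.0% (61.4% called). Fnip1, a partner of folliculin, went from a mean of 12.2 to 5.11 FPKM and the kinase Mtor from 6.37 to 3.59, changes of -1.11 and -0.68 that were -0.47 and -0.38 with the trend removed. In the Ragulator scaffold Lamtor4 went from 22.5 to 40.1 and Lamtor2 from 69.1 to 102.6; with the trend removed Lamtor4 stood at 0.20 and Lamtor2 at -0.12.

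Metal carriers fell more often than they rose. Of 25 members in all 6 samples 15 fell and 5 rose, with a median of -0.23. With the trend removed 13 fell and 3 rose, with a median of -0.13, and 10 of the falls were shared.

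Zinc exporters fell almost throughout. Of the 6 Slc30 members 5 fell and none rose, beside the 36.5% fallen and 41.1% risen of all genes. With the trend removed 4 fell, beside 32.1% of all genes. The median was -0.60 as deposited, -0.84 on the TPM scale and -0.23 with the trend removed. Slc30a1, the exporter of the plasma membrane, read 19.7, 19.6 and 19.8 FPKM in WT and 9.97, 10.2 and 10.2 in Gsdmd-/-. The replicates lay close together in each genotype, and the knockout mean was 0.512 of the WT mean. The change was -0.90 (SE 0.0428, adjusted p = 5.10e-09), or -0.53 with the trend removed (adjusted p = 1.05e-06). Slc30a7, which loads zinc into the Golgi, went from 27.4, 27.3 and 25.9 to 14.8, 14.0 and 15.01, a change of -0.84 (SE 0.0448, adjusted p = 1.16e-08), or -0.22 with the trend removed. Slc30a4, of intracellular vesicles, went from 14.2, 14.1 and 14.8 to 7.66, 7.60 and 7.71, a change of -0.83 (adjusted p = 1.89e-08), or -0.30. Slc30a5, another Golgi exporter, fell from a mean of 12.6 to 9.42, and Slc30a9 from 10.8 to 8.20, though Slc30a9 was not called with the trend removed (0.09). Slc30a6 was not called, with means of 9.16 and 8.79. Exons of Slc30a1, Slc30a4 and Slc30a7 overlap other annotated genes, so some of their reads may belong to those genes if strand was not used.

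Zinc importers fell too, with exceptions. All 10 Slc39 members in all 6 samples passed the threshold, 7 down and 3 up, with a median of -0.24. Of all 9375 genes 77.6% passed it, 36.5% down and 41.1% up. With the trend removed 6 Slc39 members fell and none rose, beside 32.1% fallen and 30.2% risen of all genes. Slc39a10 had the lowest ratio, with means of 3.51 in WT and 1.63 in Gsdmd-/-. Slc39a8, which also carries manganese and cadmium, went from 6.13 to 3.90. Slc39a1, the most abundant zinc importer, went from 112 to 96.6. The changes were -0.35 for Slc39a10, -0.37 for Slc39a8 and -0.40 for Slc39a1 with the trend removed, all past the threshold. Slc39a14, a carrier of zinc and iron that inflammation induces in liver, read 3.68, 3.73 and 3.68 against 3.14, 3.14 and 3.01. Its fall of 0.20 on the log2 scale (adjusted p = 0.0098) lost the call under quantile normalization and became 0.07 with the trend removed. The 3 that rose were Slc39a7, which releases zinc from the endoplasmic reticulum (45.8 to 57.8), Slc39a13 (12.2 to 14.5) and Slc39a3 (7.21 to 8.53); none of them was called with the trend removed.

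**Figure D3:**
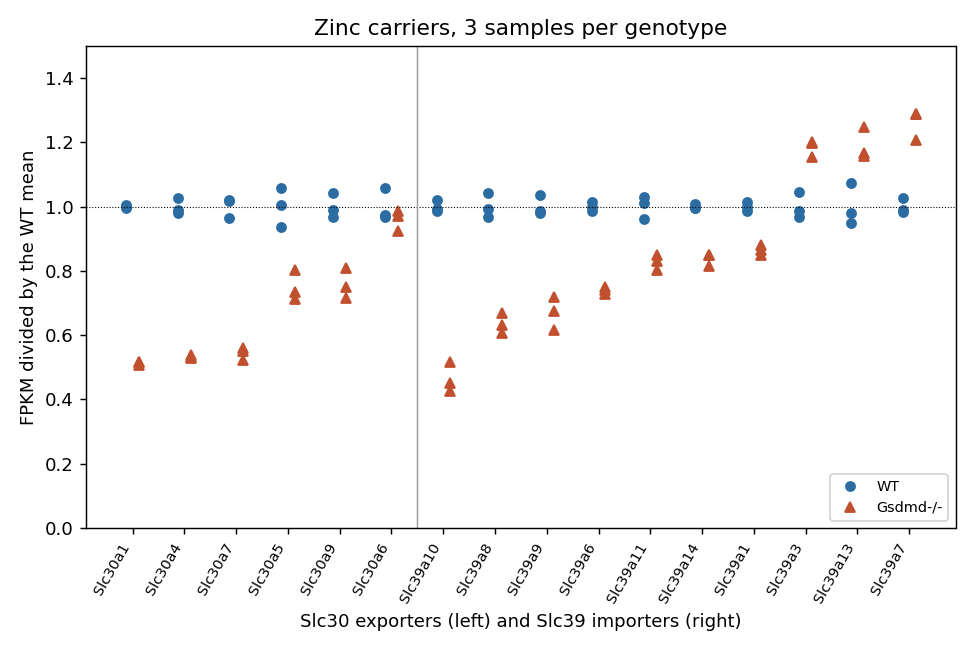
FPKM of each sample divided by the WT mean of the gene, for the 6 Slc30 exporters and 10 Slc39 importers at 1 or more in all 6 samples; circles are WT, triangles Gsdmd-/-, and the dotted line marks the WT mean. The Gsdmd-/- samples of Slc30a1, Slc30a4 and Slc30a7 sit close together near 0.512 to 0.544 of the WT mean, and Slc39a7, Slc39a13 and Slc39a3 lie above it.

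Slc30a1 and the metallothioneins, small zinc-binding proteins, are textbook targets of the zinc-sensing factor Mtf1, and they differed in opposite directions here. Mt2 read 75.8, 67.8 and 72.4 FPKM in WT and 173, 171 and 161 in Gsdmd-/-, a change of 1.21 (adjusted p = 1.20e-09), or 0.51 with the trend removed. Mt1 went from a mean of 183 to 364, and stood at 0.52 with the trend removed. Mtf1 itself fell from 3.06 to 2.50 as deposited, a change of -0.21, but stood at 0.20 with the trend removed.

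The upstream bases of Slc30a1 and Mt2 are shown because the factor's binding motif, TGCNCNC, is known from metallothionein promoters. The sequences are from the same RefSeq table and build, plus strand, with matches on either strand in capitals: 30 bases of the Slc30a1 window at chr1:191906726-191906755, which lie in the annotated gene since a transcript starts farther upstream, and the 250 bases before Mt2 at chr8:94172368-94172617.
Slc30a1: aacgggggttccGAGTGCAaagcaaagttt
Mt2: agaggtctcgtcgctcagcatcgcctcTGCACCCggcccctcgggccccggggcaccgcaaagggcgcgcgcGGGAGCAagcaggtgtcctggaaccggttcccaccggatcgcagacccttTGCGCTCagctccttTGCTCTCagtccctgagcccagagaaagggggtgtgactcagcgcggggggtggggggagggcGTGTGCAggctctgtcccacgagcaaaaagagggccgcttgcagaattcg
The Slc30a1 window held 1 match and the Mt2 window 5, none overlapping another. The motif is short, and 43.8% of all 27025 promoters and 65 of the 128 matched members (50.8%) held it, so its presence sets neither gene apart. Another motif, TGACNNNGC of the antioxidant response, was in 10.1% of all promoters and in 22 of the 128 members (17.2%), as a description.

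Changes of the iron, heme and copper carriers differed in size and direction. Slc11a1, the iron and manganese pump of the phagosome that limits microbial growth, overlapped at 61.9, 67.8 and 64.8 FPKM in WT and 65.3, 62.6 and 60.9 in Gsdmd-/-, with a change of -0.04 (adjusted p = 0.359); with the trend removed it was -0.29 (adjusted p = 3.65e-05). Slc11a2, the endosomal iron importer, also overlapped, at 42.5, 44.3 and 44.7 against 43.8, 44.2 and 44.8. Its change of 0.02 was not called, and became 0.19 with the trend removed and -0.20 on the TPM scale, both past the threshold. Slc40a1, ferroportin, the iron exporter, was low at 1.79, 1.80 and 1.67 against 1.56, 1.10 and 1.31. Its change of -0.25 (adjusted p = 0.0156) was -0.03 with the trend removed, and without Gsdmd-/- replicate 2 the adjusted p was 0.0714. Slc48a1, which moves heme out of phagolysosomes after red cell uptake, rose from 68.7, 70.8 and 68.0 to 86.9, 87.1 and 82.8, a change of 0.30 (adjusted p = 4.43e-06), or 0.07 with the trend removed (adjusted p = 0.047). Its exons overlap Hdac7.

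Among the copper carriers, Slc31a1, the importer of the plasma membrane, read 65.0, 65.1 and 63.8 in WT and 54.4, 55.9 and 54.9 in Gsdmd-/-. Its change of -0.23 (adjusted p = 3.06e-05) turned to 0.09 with the trend removed (adjusted p = 0.0214). Slc31a2, of endosomes and lysosomes and the most abundant metal carrier, read 130, 125 and 131 against 143, 140 and 137. Its rise of 0.12 (adjusted p = 0.00339) turned to -0.08 with the trend removed, -0.10 on the TPM scale and -0.02 under quantile normalization. Of 16 tested genes of metal handling that are not solute carriers, 8 rose and 5 fell with a median of 0.13. Shares of all genes tested were 40.6% risen and 36.9% fallen. With the trend removed 7 rose and 4 fell, beside 30% risen and 31.4% fallen of all genes tested. Atp7a, the copper-exporting pump, went from a mean of 10.5 to 3.80, a change of -1.26 that was -0.88 with the trend removed. Ncoa4, the receptor that delivers ferritin to lysosomes, fell from 68.9 to 41.6, by 0.72 on the log2 scale or 0.41 with the trend removed.

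Glucose and sugar carriers changed in both directions. Of 12 members, all in the 6 samples, 5 fell and 4 rose, with a median of -0.04. That is 41.7% fallen and 33.3% risen, near the 36.5% and 41.1% of all genes. With the trend removed 3 fell and 1 rose, beside 32.1% and 30.2% of all genes, and no rise was shared. Slc2a1, the basal glucose importer that inflammatory activation raises in macrophages, read 63.5, 62.3 and 60.9 FPKM in WT and 53.5, 58.5 and 57.0 in Gsdmd-/-. All knockout samples were lower, by 9.47% on average, a change of -0.14 (adjusted p = 0.00495), or -0.22 with the trend removed. Slc2a3, a high-affinity glucose importer, was low at 3.21, 3.28 and 3.43 against 2.46, 2.37 and 2.65, and fell by 0.30 on the log2 scale (adjusted p = 0.0011). Slc2a6, a lysosomal hexose carrier and the most abundant of the class, rose from 185, 191 and 186 to 240, 241 and 241. That rise of 0.36 (SE 0.0260, adjusted p = 1.25e-07) came to 0.01 with the trend removed (adjusted p = 0.772).

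Slc50a1, a sugar carrier of the SWEET family, read 17.2, 19.6 and 16.5 in WT and 25.3, 28.7 and 23.9 in Gsdmd-/-. It had the largest rise of the class at 0.52 (adjusted p = 5.02e-05) and the shortest transcript (1022 bases), and its value with the trend removed was -0.01. Slc2a8, an intracellular hexose carrier, rose from a mean of 2.59 to 3.86, by 0.43 (adjusted p = 0.00152), and stood at 0.04 with the trend removed, not called. The glucose-6-phosphate carriers of the endoplasmic reticulum moved apart. Slc37a2 fell from 40.3, 39.4 and 37.8 to 31.6, 31.2 and 33.9, a change of -0.27 (adjusted p = 8.22e-05) that turned to 0.05 with the trend removed. Slc37a4, which feeds glucose-6-phosphatase, rose from 3.44, 3.70 and 2.79 to 4.39, 4.68 and 4.27, a change of 0.34 (adjusted p = 0.00221) that was 0.09 with the trend removed and not called.

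**Figure D4:**
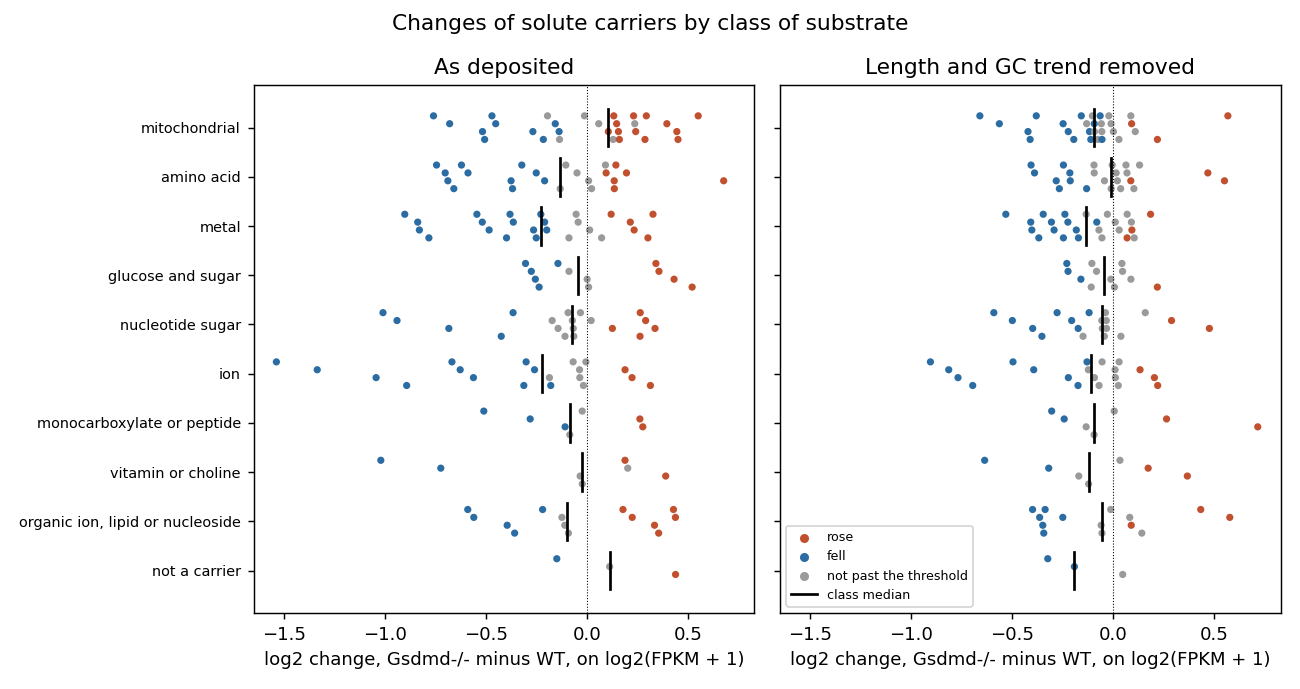
Log2 change, Gsdmd-/- minus WT, of each of the 159 members by class of substrate, as deposited (left) and after removal of the trend on length and GC (right); points are coloured by call and black bars mark class medians. The mitochondrial median moves from 0.11 to -0.09. The medians of all other classes of carriers are below 0 in both. Among them are metal (-0.23 and -0.13), ion (-0.22 and -0.11), amino acid (-0.13 and -0.01) and vitamin or choline (-0.02 and -0.12).

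Ion carriers held the largest falls of all. Of 20 members in all 6 samples 11 fell (55%) and 3 rose (15%), beside 36.5% fallen and 41.1% risen of all genes. With the trend removed 9 fell and 3 rose, beside 32.1% fallen and 30.2% risen of all genes. Slc8a1, the sodium-calcium exchanger of the plasma membrane, read 7.65, 6.61 and 8.0 FPKM in WT and 1.84, 1.79 and 2.07 in Gsdmd-/-. The knockout mean was 0.256 of the WT mean, the lowest ratio of the 159 members, and the change was -1.54 (SE 0.0761, adjusted p = 6.72e-09), or -0.81 with the trend removed (adjusted p = 9.91e-07). Slc4a7, which brings in bicarbonate with sodium and so raises cytosolic pH, went from 14.3, 13.8 and 13.5 to 5.07, 4.88 and 4.74. The change was -1.33 (SE 0.0520, adjusted p = 1.73e-09), or -0.69 with the trend removed. Slc26a2, the sulfate carrier that supplies proteoglycan sulfation, went from 6.10, 6.24 and 5.93 to 2.46, 2.37 and 2.50, a change of -1.04 (adjusted p = 1.92e-08), or -0.49. In each of these 3 genes the groups lay far apart.

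As deposited, the other ion carriers changed by less. Slc9a7 and Slc9a9, sodium-proton exchangers of the Golgi and endosomes, had means of 6.64 and 5.06 in WT and 3.80 and 3.93 in Gsdmd-/-, and both fell in both analyses. Slc9a8, of the Golgi, was not called, with means of 9.02 and 8.56. The potassium-chloride cotransporters Slc12a4 and Slc12a7 fell, with means of 20.4 and 21.1 against 16.3 and 17.5, and stood at -0.39 and -0.13 with the trend removed. The orphan Slc12a9 rose from 14.3 to 18.1, by 0.32 or by 0.13 with the trend removed (adjusted p = 0.0488), and was not called on the TPM scale (0.11). Slc24a5, a potassium-dependent sodium-calcium exchanger known from melanosomes, fell from 8.41 to 4.07, and its value was alike as deposited (-0.89) and with the trend removed (-0.90); its exons overlap Myef2.

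The nucleotide sugar class, which is the whole Slc35 family and so also holds carriers of other substrates, split evenly as deposited. Of 19 members 5 fell and 5 rose, 26.3% each, beside 36.5% fallen and 41.1% risen of all genes. With the trend removed 8 fell and 2 rose, beside 32.1% and 30.2%. Slc35a3, the carrier of UDP-N-acetylglucosamine, went from 12.8, 11.4 and 11.8 FPKM to 5.55, 5.44 and 5.39, a change of -1.01 (SE 0.0565, adjusted p = 1.67e-08), or -0.40 with the trend removed. Slc35a5 went from 10.9, 10.3 and 11.8 to 5.41, 5.05 and 5.27, a change of -0.94 (adjusted p = 4.61e-08), or -0.50. Slc35f5 went from 26.6, 25.1 and 26.8 to 15.3, 15.2 and 17.3, a change of -0.68 (adjusted p = 2.27e-07), or -0.59. In each the groups were separate by a wide margin. The highest of the class, Slc35b1, which exchanges ATP for ADP across the endoplasmic reticulum membrane, read 45.3, 49.3 and 45.7 against 53.6, 60.3 and 55.4. Its rise of 0.26 (adjusted p = 0.000304) was 0.05 on the TPM scale and -0.03 with the trend removed, neither of them called. Slc35a1, the CMP-sialic acid carrier, overlapped between the groups with means of 3.99 and 3.52.

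The monocarboxylate carriers moved apart. Slc16a3, which exports lactate from glycolytic cells, rose from 56.6, 60.5 and 56.6 FPKM to 69.9, 70.0 and 69.1. The change was 0.26 (SE 0.0350, adjusted p = 2.32e-05) and 0.27 with the trend removed, but 0.04 and not called on the TPM scale. Slc16a1, a carrier of lactate and pyruvate in both directions, fell from 5.39, 5.39 and 5.45 to 3.35, 3.67 and 3.50, a change of -0.51 (adjusted p = 7.55e-06) that was -0.13 with the trend removed (adjusted p = 0.0645). Bsg, the chaperone that both need to reach the surface, rose from a mean of 188 to 265, by 0.49 as deposited, and stood at 0.03 with the trend removed.

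The lysosomal peptide and histidine carriers of the Slc15 family also differed from each other. Slc15a3 was the most abundant of all members, at 426, 457 and 441 in WT and 534, 542 and 529 in Gsdmd-/-. Its rise of 0.28 (adjusted p = 2.88e-06) came to 0.01 with the trend removed, 0.06 on the TPM scale and -0.02 under quantile normalization, and its exons overlap those of Tmem132a on the opposite strand. Slc15a4, which supports signalling of endosomal Toll-like receptors, read 19.0, 19.6 and 18.04 in WT and 17.8, 17.0 and 17.6 in Gsdmd-/-. The groups did not overlap and it fell by 0.11 on the log2 scale (adjusted p = 0.0492), a call that was lost when any library but WT replicate 3 was left out, with adjusted p from 0.0635 to 0.158. With the trend removed it stood at -0.30 (adjusted p = 7.91e-05).

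Vitamin and choline carriers held a pair of clear falls. Slc23a2, which takes up ascorbate (vitamin C), went from 54.4, 52.1 and 53.0 FPKM to 25.1, 25.4 and 26.9, a change of -1.02 (SE 0.0389, adjusted p = 1.45e-09), or -0.64 with the trend removed (adjusted p = 4.50e-08). It was the most abundant of the class in WT. Slc44a1, a choline carrier for phosphatidylcholine synthesis, went from 36.3, 36.5 and 37.0 to 21.5, 22.3 and 21.6, a change of -0.72 (adjusted p = 8.62e-09), or -0.32. Slc44a2, of the same family, rose from a mean of 15.5 to 17.8 and by 0.17 with the trend removed, but was not called on the TPM scale (-0.02). Slc46a1, the proton-coupled folate carrier, rose from 5.41, 5.20 and 5.29 to 7.09, 7.25 and 7.45, a change of 0.39 (adjusted p = 3.26e-05) that was 0.03 with the trend removed and not called. Xpr1, a phosphate exporter outside the Slc symbols, fell from 13.2 to 6.97, and Flvcr1, a choline and heme carrier, from 10.1 to 5.78; with the trend removed they stood at -0.26 and -0.45, both past the threshold.

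The 3 nucleoside carriers did not move together. Slc29a3, the nucleoside exporter of lysosomes whose loss leads to macrophage accumulation, fell from 42.8, 45.0 and 43.7 to 28.6, 28.4 and 29.4, a change of -0.59 (SE 0.0367, adjusted p = 3.73e-08), or -0.34 with the trend removed. Slc29a1, the equilibrative carrier of the plasma membrane, rose from 18.02, 19.2 and 18.6 to 23.7, 24.2 and 24.3, a change of 0.36 (adjusted p = 7.10e-06) that was 0.08 with the trend removed (adjusted p = 0.0598). Slc28a2, the sodium-coupled purine nucleoside carrier and the highest of its class, rose from 144, 139 and 145 to 165, 164 and 172. The change was 0.23 (adjusted p = 2.59e-05), 0.43 with the trend removed (adjusted p = 7.95e-08) and 0.00 on the TPM scale. As deposited, Slc29a1 and Slc28a2 were thus higher in all 3 knockout samples and Slc29a3 lower. The call was lost for Slc29a1 with the trend removed and for Slc28a2 on the TPM scale (adjusted p = 0.913 in limma). A link to the site of the carrier was not tested.

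Of the lipid and organic ion carriers, Slc27a1, which imports and activates long-chain fatty acids, rose from 58.5, 64.7 and 61.1 to 77.7, 78.0 and 77.5, a change of 0.34 (adjusted p = 5.64e-06), or 0.09 with the trend removed (adjusted p = 0.0185). Slc33a1, which brings acetyl-CoA into the endoplasmic reticulum, fell from 16.1, 16.9 and 17.5 to 11.4, 10.3 and 11.7, a change of -0.56 (adjusted p = 1.87e-06), or -0.40. Slc22a5, the carnitine importer, fell from a mean of 2.93 to 2.07, and Slc17a5, the exporter of sialic acid from lysosomes, from 14.6 to 10.9; both fell with the trend removed too, by 0.35 and 0.25 on the log2 scale. Slc22a29 and Slc22a18 were, with Slc3a2, the members at least 1.5-fold higher, at means of 1.93 and 2.95 for Slc22a29 and of 2.06 and 3.16 for Slc22a18. Slc22a29 stood at 0.58 with the trend removed and Slc22a18, no longer called, at -0.01 (adjusted p = 0.914).

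Other transporters and partners outside the Slc symbols were divided as well: of 22 tested genes 8 rose and 9 fell, with a median of -0.03. With the trend removed 5 rose and 8 fell. Of all 10005 genes tested 40.6% rose and 36.9% fell, and with the trend removed 30% and 31.4%. Cln3, a lysosomal membrane protein, rose from a mean of 62.2 FPKM to 88.3, by 0.50 in both analyses. Mpc1 and Mpc2, the subunits of the mitochondrial pyruvate carrier, had means of 60.4 and 17.3 in WT and of 63.3 and 23.3 in Gsdmd-/-; Mpc2 rose by 0.41 as deposited but stood at -0.09 with the trend removed.

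The 9 members that entered through 1 genotype lie near the level that admits a member. Besides Slc7a11, 4 entered through WT: Slc25a30, with means of 2.48 in WT and 0.89 in Gsdmd-/-, Slc25a32, a mitochondrial folate carrier, with 1.90 and 0.94, Slc12a2, a sodium-potassium-chloride cotransporter, with 1.43 and 0.69, and Slc6a4, the serotonin carrier, with 1.41 and 0.85. The other 4 entered through Gsdmd-/-: Slc39a12 (1.05 in WT and 1.14 in Gsdmd-/-), Slc39a4 (0.92 and 1.52), Slc22a4 (0.90 and 1.22) and Slc5a6 (1.09 and 1.25). Just inside the rule, the lowest sample of the better group was 1.03 for Slc5a6 and 1.06 for Slc37a1; just outside, it was 0.99 for Slc18b1, 0.90 for Slc15a2 and 0.89 for Slc39a2. The peptide carrier Slc15a2, which did not enter, read 0.40, 0.45 and 0.53 in WT and 1.07, 0.94 and 0.90 in Gsdmd-/-. Of the 151 Slc symbols outside the rule, 82 were under 0.1 in all 6 samples, among them 1 at 0 in all.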

How the data were processed

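The authors deposited 1 table of gene values per sample, under a header that gives no unit beyond expression. Their sums and steps fit FPKM, so the deposited values are read as FPKM, an inference. Per the submitters' processing notes, Bowtie2 2.2.5 and build GRCm38.p6 were used. Counter, annotation, strand setting, filters: not given in the sources used here.

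All 6 samples were fitted with limma 3.58.1 (trend and robust) in R 4.3.3 on log2(FPKM + 1), over the 10005 genes at 1 or more in at least 3 of the 6 samples, with genotype as the only term and Benjamini-Hochberg adjustment over all of them. An exact permutation test of 3 against 3 samples could not give a two-sided p under 0.1. The fit was tested on simulated data. A trend on transcript length and GC content (natural splines of 5 degrees of freedom each, longest GENCODE M21 coding transcript) was removed from each sample as an alternative, over the 98.3% of tested genes with both. Other alternatives were pseudocounts of 0.1 and 0.01, other filters, TPM, median ratio and quantile scaling, limma without trend and robust, a replicate block, and leaving out each sample. Sample numbers did not pair the genotypes.

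Members, classes and lists (partner carriers, lysosomal amino acid sensing, metal handling, and cell type markers for macrophages, neutrophils, eosinophils or mast cells, dendritic cells, lymphocytes, epithelium, fibroblasts, endothelium, erythroid cells, and smooth muscle or glia) were chosen with earlier results of these data known. Full values are given for a set of well-known carriers whatever their p, for up to 3 members with the smallest p in each class, and for the highest member of each class. Other members are given by level; some members are not reported here singly. RefSeq entries of the promoter table matched 128 of the 168 members. Exons of 52 members overlap another gene, whose reads cannot be told apart without strand.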

Additional observations from a re-analysis of the deposited data

How the results depend on the processing

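Pseudocounts of 0.1 and 0.01, the other filters, and limma without trend and robust kept every count of members within 1.5 times its value and reversed no named member. On the TPM scale 17 members rose with a median change of -0.29, where that of all genes in all 6 samples was -0.172. The rises were then 4 mitochondrial, 1 amino acid, 2 metal and 6 other carriers, and the falls 16 mitochondrial and 42 other carriers. These counts have no share of all genes on that scale beside them. Median ratio scaling left 3 amino acid carriers that rose. Once the trend on length and GC was removed 22 members rose, among them 3 mitochondrial, 3 amino acid, 3 metal and 1 glucose and sugar carriers, and 3 glucose and sugar carriers fell. Of the 52 named members tested, 27 kept direction and call with the trend removed and 35 on the TPM scale.

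Single members reported here changed sign as follows. TPM gave -0.06 for Slc25a3, -0.08 for Slc25a20, -0.07 for Slc25a4, -0.20 for Slc11a2, -0.02 for Slc1a5, -0.16 for Slc25a5, -0.10 for Slc31a2 and -0.07 for Slc7a5. Median ratio scaling gave -0.02 for Slc11a2. Quantile normalization gave -0.02 for Slc15a3, -0.06 for Slc11a2, -0.08 for Slc25a5 and -0.02 for Slc31a2. Removing the trend, with or without the replicate block, gave -0.03 for Slc35b1, -0.05 for Slc25a3, -0.09 for Slc25a20, -0.09 for Slc25a4, 0.09 for Slc31a1, 0.02 for Slc7a8, 0.47 for Slc38a9, -0.01 for Slc25a1, -0.01 for Slc1a5, 0.05 for Slc37a2, -0.25 for Slc25a5, -0.08 for Slc31a2, -0.01 for Slc50a1 and 0.07 for Slc39a14. Beyond the scaling and the length and GC content that these alternatives alter by construction, the cause was not tested.

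Same-numbered samples had correlations of their deviations of -0.08, 0.13 and 0.01, so the numbers were not taken as pairs. With the replicate block 48 members rose and 69 fell. With the replicate block and the trend removed 22 members rose, 3 each of the mitochondrial, amino acid and metal carriers, while 1 glucose and sugar carrier rose and 2 fell.

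Leaving out each sample in turn gave 44 to 47 members that rose, 63 to 66 that fell and medians of -0.11 to -0.08. The ranges were 12 to 14 rises and 9 to 11 falls for mitochondrial, 3 to 6 and 10 to 11 for amino acid, 5 and 14 to 15 for metal, 4 and 4 to 5 for glucose and sugar, and 17 to 18 and 24 to 27 for other carriers. Slc11a2, not called, ranged from -0.01 to 0.03. Besides the calls named in the text, Slc15a4 lost its call with no filter, without trend and robust, and with the replicate block (adjusted p from 0.0566 to 0.0733).

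Depth is a rough estimate, so counting error cannot be given per gene.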
